A study of Mus musculus with 9 samples.

Results

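A set of 10 genes that mark astrocytes, radial glia and Müller glia was followed across 9 mouse arrays: Gja1, Aqp4, Slc1a3, Glul, Aldoc, Fabp7, Bcan, Rlbp1, Clu and Apoe. They were taken by symbol, with every probe set that the array annotation assigns to exactly 1 of these symbols. This gave 28 of the 34945 probe sets with 1 gene, and 10 of 18193 genes. The first group was DKK1-treated ESC-RPCs, retinal progenitor cells derived from embryonic stem cells and given 1 ng/ml of the secreted Wnt antagonist DKK1 for 1 day. The second was untreated ESC-RPCs, and the third was primary RPCs, labelled as cultured and taken from the neural retina of newborn C57 mice (postnatal day 1) after dissociation. Each group had 3 arrays from independent biological repeats, per the labels.

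All ESC-RPCs shared the same history. They came from the 46C embryonic stem cell line, a Sox1 reporter line made by gene targeting in E14Tg2a.IV cells, and formed embryoid bodies over 3 days with SB431542, an inhibitor of activin-type receptors that blocks Nodal signalling. Sox1-positive cells, 35.8% of the culture, were isolated by flow sorting on day 7. After sorting, the cells grew with 10 µM DAPT, a blocker of Notch receptor processing, together with bFGF, a fibroblast growth factor, at 20 ng/ml. The ESC-RPC groups therefore rest on 1 cell line, and every ESC-RPC array saw the Notch pathway inhibitor. In the study's design, DKK1-treated ESC-RPCs stand for a more mature stage than untreated ones, and primary RPCs serve as the negative control when proliferation and tumour-related genes are examined.

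Radial glia are the elongated stem cells of the embryonic nervous system, and they later give rise to astrocytes, the star-shaped support cells of the brain. In the retina the corresponding support cell is the Müller glia cell, which is born last from the same progenitors as the retinal neurons and clears transmitter, water and visual pigment products. Many genes are shared by these 3 cell types and by late retinal progenitors, so no single gene of the 10 names a cell type on its own.

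Values are MAS5 intensities in linear units, and differences are log2 differences ± SE from limma, fitted over all 13320 genes that passed a filter on dim signals. P-values were adjusted by the Benjamini-Hochberg method over those genes, and a gene was called at an adjusted p below 0.05. A gene with several probe sets is represented by its brightest. All 10 genes and 26 of their 28 probe sets passed the filter. The 40th percentile of each array, 44.7 to 52.9, served as the floor, and a signal under it is described as below the floor. Across genes, DKK1-treated arrays had correlations of 0.975 to 0.985 with untreated arrays, and ESC-RPC arrays had correlations of 0.825 to 0.836 with primary arrays. The 3-prime over 5-prime ratio of Actb, a measure of RNA integrity, averaged 1.35 in DKK1-treated, 1.34 in untreated and 1.24 in primary samples, and its part in the differences was not tested.

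The label of the ESC-RPCs was set against retinal markers. Rax, a transcription factor that defines the eye field, had a mean intensity of 12.5 in DKK1-treated ESC-RPCs and 28.2 in untreated ESC-RPCs, against 3939 in primary RPCs. All 3 DKK1-treated arrays and 2 of the 3 untreated arrays lay below the floor for Rax. Sox1, the sort marker and a gene of neural plate and brain progenitors, averaged 2886 in DKK1-treated and 2831 in untreated ESC-RPCs, and was below the floor on every primary array. Of 7 measured retinal progenitor genes, 5 were called lower in both ESC-RPC groups than in primary RPCs (Rax, Six6, Six3, Lhx2 and Pax6) and 2 were called higher (Sfrp2 and Fgf15). Of 10 pluripotency genes, 9 were called higher in each ESC-RPC group, and their summed intensity ran from 21970 to 23730 on DKK1-treated arrays and from 18890 to 22910 on untreated arrays, against 563.6 to 887.0 on primary arrays. Of 10 mesenchyme genes, 9 were called higher and 1 lower, and their sum ran from 18760 to 22700 on DKK1-treated and from 18850 to 23200 on untreated arrays, against 981.4 to 1591 on primary arrays. Of 6 kept photoreceptor genes, all were called lower in both ESC-RPC groups, and the sum of 7 ran from 1220 to 1650 on DKK1-treated and from 1440 to 1817 on untreated arrays, against 32750 to 47270 on primary arrays. Of 7 kept oligodendrocyte genes, 3 were called higher and 1 lower in untreated ESC-RPCs, and 3 higher and 2 lower in DKK1-treated ESC-RPCs. Of 7 kept visceral endoderm genes, 5 were called higher in DKK1-treated and 3 in untreated ESC-RPCs and none lower, and the sum of 10 ran from 1073 to 1388 on DKK1-treated and from 1065 to 1400 on untreated arrays, against 216.4 to 350.8 on primary arrays. Of 10 neuron genes, 4 were called higher and 2 lower in each ESC-RPC group. Beside all these counts, 26.1% of all genes were called higher and 26.9% lower in untreated ESC-RPCs, and 26.0% and 26.8% in DKK1-treated ESC-RPCs. Some genes in these counts passed the filter through primary arrays alone, namely Crx, Nrl, Sag and Pdc. Others passed through ESC-RPC arrays alone: 5 pluripotency genes, 4 mesenchyme genes, Sox17, Foxa2, Cubn, Gata4 and Mobp. The filter thus limited the direction that these genes could take. These other cell types move with the comparison of ESC-RPCs with primary RPCs, and their part in the values below was not tested. In bulk RNA, more cells of a type and more RNA per cell cannot be told apart.

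ESC-RPCs and primary RPCs differed in all 10 glial genes. In untreated ESC-RPCs, 8 were called higher than in primary RPCs (Gja1, Aqp4, Slc1a3, Aldoc, Fabp7, Bcan, Clu and Apoe), where 26.1% of all genes were called higher. The other 2, Glul and Rlbp1, were called lower, as were 26.9% of all genes. The same 8 were higher and the same 2 lower in DKK1-treated ESC-RPCs against primary RPCs, where 26.0% of all genes were called higher and 26.8% lower. These comparisons share the primary arrays. The median log2 difference of the 10 genes was 0.98 for DKK1-treated and 0.83 for untreated ESC-RPCs, beside -0.00775 and -0.00678 over all genes.

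**Figure D1:**
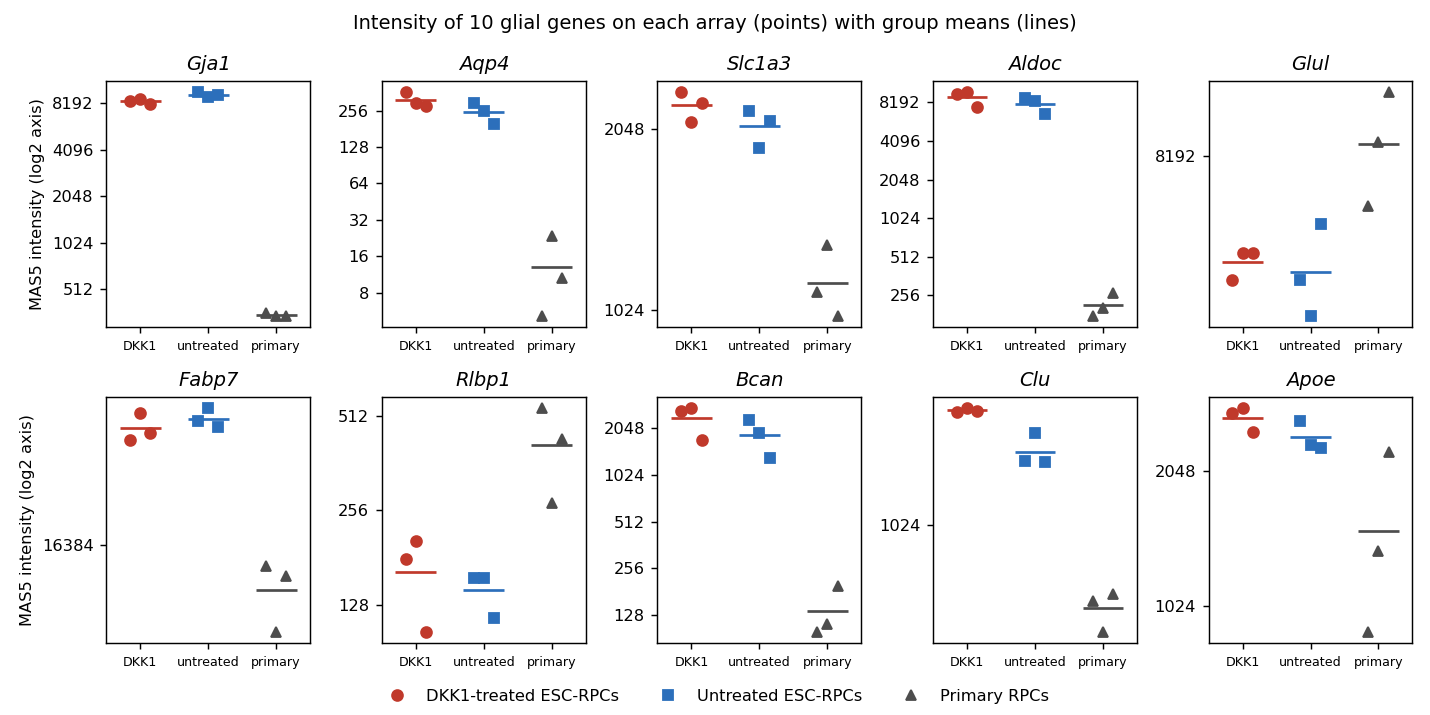
MAS5 intensity (log2 axis, own scale in each panel) of the 10 genes on each array; points are arrays and lines are group means, n = 3. Gja1, Aqp4, Aldoc and Bcan stand far apart between ESC-RPCs and primary RPCs, Glul and Rlbp1 are highest on primary arrays, and the 3 primary Aqp4 values lie below the floor.

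The genes of membrane channels come first. Gja1 encodes connexin 43, the main gap junction protein of astrocytes and radial glia, which is also made by many other cell types. Its intensity was 8504, 8715 and 8119 on the DKK1-treated arrays, 9646, 8943 and 9297 on the untreated arrays, and 359.5, 342.6 and 341.3 on the primary arrays. Every ESC-RPC array was thus far above every primary array. The difference was 4.60 ± 0.07 for DKK1-treated and 4.74 ± 0.07 for untreated ESC-RPCs over primary RPCs, which is 24.3-fold and 26.7-fold (limma, adjusted p = 5.44e-11 and 4e-11).

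Gja1 had 6 kept probe sets, and all 6 were called higher in both primary comparisons. Their differences for untreated ESC-RPCs ranged from 2.22 to 5.62. The brightest probe set carries the array's suffix for probes that can match other transcripts, and the brightest Gja1 probe set without that suffix gave 4.55 ± 0.08. Over all kept probe sets, 47.5% were called between untreated ESC-RPCs and primary RPCs and 47.6% between DKK1-treated ESC-RPCs and primary RPCs.

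Aqp4 encodes aquaporin-4, the water channel of astrocyte and Müller glia endfeet. Its intensity was 364.4, 294.7 and 282.8 on DKK1-treated arrays and 294.9, 252.7 and 200.7 on untreated arrays, against 5.107, 23.43 and 10.56 on primary arrays. All 3 primary values lay below the floor, so the fold is a bound, taken against the floor. Aqp4 was at least 6.59-fold higher in DKK1-treated and at least 5.20-fold higher in untreated ESC-RPCs than in primary RPCs. The test did not use the floor: on the values as measured the differences were 4.85 ± 0.45 and 4.51 ± 0.45 (limma, adjusted p = 9.62e-06 and 1.64e-05). Aqp4 passed the filter through ESC-RPC arrays alone. A second probe set was also called higher in both comparisons, and the remaining probe set did not pass the filter.

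Slc1a3 and Glul act in one route, the clearing of glutamate. Slc1a3 encodes the glutamate transporter GLAST, found in radial glia, astrocytes and Müller glia, and in retinal progenitors. Its intensity was 2356, 2100 and 2265 on DKK1-treated arrays and 2195, 1902 and 2109 on untreated arrays, against 1100, 1317 and 1002 on primary arrays. The groups did not overlap, and the difference was 0.98 ± 0.11 for DKK1-treated and 0.87 ± 0.11 for untreated ESC-RPCs over primary RPCs (limma, adjusted p = 4.07e-05 and 9.75e-05). Of its 5 kept probe sets, 4 were called higher in both comparisons. The exception averaged 38.88 in DKK1-treated, 68.64 in untreated and 30.45 in primary cells, near the floor. When that most variable probe set represented the gene, the call was lost in both comparisons, with differences of 0.417 for DKK1-treated and 1.37 for untreated ESC-RPCs (limma, adjusted p = 0.565 and 0.0653).

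Glul encodes glutamine synthetase, which converts the glutamate taken up by glia to glutamine and is a standard marker of Müller glia. Its intensity was 5998, 6423 and 6425 on DKK1-treated arrays and 6002, 5484 and 6904 on untreated arrays, against 7229, 8503 and 9624 on primary arrays. All primary arrays were above all ESC-RPC arrays, in the direction opposite to Slc1a3. Glul was lower by a difference of -0.42 ± 0.11 in DKK1-treated and -0.46 ± 0.11 in untreated ESC-RPCs (limma, adjusted p = 0.0083 and 0.00499). The second Glul probe set gave -0.65 ± 0.12 in both comparisons.

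Aldoc encodes aldolase C, the brain form of a glycolytic enzyme and an astrocyte marker. Its intensity was 9405, 9796 and 7570 on DKK1-treated arrays and 8832, 8404 and 6596 on untreated arrays, against 176.8, 203.2 and 268.3 on primary arrays. The groups lay far apart, with a difference of 5.38 ± 0.17 for DKK1-treated and 5.21 ± 0.17 for untreated ESC-RPCs (limma, adjusted p = 4.88e-09 and 6.4e-09). In linear terms Aldoc was 41.7-fold higher in DKK1-treated and 37.0-fold higher in untreated ESC-RPCs. A second, dimmer Aldoc probe set was also called higher, and lay below the floor on all primary arrays.

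The promoters of Gja1 and Aldoc, with steep rises over primary RPCs, and of Rlbp1, with the steepest fall of the 10, are shown so that their sequence can be read beside these values. They are RefSeq sequences of GRCm38.p6, from 250 bases before to 50 bases after the annotated start, written on the strand of the gene. Capitals mark matches to the 6 motifs named in the next paragraph. The Gja1 promoter is chr10:56377050-56377349 on the plus strand, the first of 2 Aldoc promoters is chr11:78322823-78323122 on the plus strand, and the Rlbp1 promoter is chr7:79386978-79387277 on the minus strand.
Gja1: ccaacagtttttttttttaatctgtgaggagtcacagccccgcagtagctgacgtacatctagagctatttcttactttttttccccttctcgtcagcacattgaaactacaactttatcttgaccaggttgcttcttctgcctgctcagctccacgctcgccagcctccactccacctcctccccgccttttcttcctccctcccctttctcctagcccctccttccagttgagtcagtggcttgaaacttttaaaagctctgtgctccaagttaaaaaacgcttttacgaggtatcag
Aldoc: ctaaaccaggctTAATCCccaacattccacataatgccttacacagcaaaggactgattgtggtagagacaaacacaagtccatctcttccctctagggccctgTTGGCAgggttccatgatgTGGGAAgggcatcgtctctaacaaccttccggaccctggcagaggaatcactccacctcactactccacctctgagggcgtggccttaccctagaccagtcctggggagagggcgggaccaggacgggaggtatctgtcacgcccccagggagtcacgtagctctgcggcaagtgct
Rlbp1: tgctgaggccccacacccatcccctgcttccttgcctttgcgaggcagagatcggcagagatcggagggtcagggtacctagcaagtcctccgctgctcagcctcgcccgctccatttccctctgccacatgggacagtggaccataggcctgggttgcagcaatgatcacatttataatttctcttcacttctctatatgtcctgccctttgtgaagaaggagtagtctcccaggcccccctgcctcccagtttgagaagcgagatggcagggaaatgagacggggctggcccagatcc

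RefSeq promoters were matched for 8 of the 10 genes, 11 promoters in all, without Clu and Aqp4. They were searched on both strands for 6 short motifs of factors named in glial and retinal development, or downstream of the pathways these cells were treated for. The TCF/LEF motif of Wnt signalling was CTTTGA, found in 16.0% of 32544 mouse promoters of the same length. The Notch effector RBPJ was searched as TGGGAA (25.4%), NFI as TTGGCA (14.1%), SOX as ACAATG (12.4%), CRX and OTX as TAATCC (7.06%) and STAT as TTCNNNGAA (8.33%). A STAT match can contain the RBPJ motif of the other strand (TTCCCA), but no matches in the 11 promoters shared a base.

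The Aldoc promoter shown held a CRX/OTX match at -238, an NFI match at -146 and an RBPJ match at -127 from the start. The other Aldoc promoter held 1 TCF/LEF match, 2 RBPJ matches and 2 STAT matches. Slc1a3 held a STAT match at -96, Fabp7 an RBPJ match at -249, and 2 of the 3 Apoe promoters held 2 matches each. The letters of these motifs are not in the windows of Gja1, Glul, Bcan or Rlbp1. A match describes the sequence and shows no binding.

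Fabp7 and Bcan are genes of radial glia and young astrocytes. Fabp7 encodes brain lipid-binding protein, a fatty acid carrier used to mark radial glia. Its intensity was 23020, 25080 and 23540 on DKK1-treated arrays and 24460, 25470 and 23970 on untreated arrays, against 15310, 12400 and 14850 on primary arrays. It was bright in all groups, and higher in DKK1-treated ESC-RPCs by 0.76 ± 0.08 and in untreated ESC-RPCs by 0.80 ± 0.08 (limma, adjusted p = 1.64e-05 and 1.1e-05). The highest value of any probe set in the table was 33649.

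Bcan encodes brevican, a proteoglycan of the brain's extracellular matrix. Its intensity was 2633, 2743 and 1722 on DKK1-treated arrays and 2300, 1896 and 1311 on untreated arrays, against 99.86, 112.8 and 198.2 on primary arrays. The spread within groups was wide, yet the lowest ESC-RPC array was far above the highest primary array. Bcan was 17.7-fold higher in DKK1-treated and 13.7-fold higher in untreated ESC-RPCs, a difference of 4.15 ± 0.29 and 3.77 ± 0.29 (limma, adjusted p = 1.16e-06 and 2.24e-06). Its second probe set was at least 8.36-fold higher in DKK1-treated and at least 6.59-fold higher in untreated ESC-RPCs.

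Rlbp1 encodes the retinaldehyde-binding protein CRALBP, a carrier of visual pigment products in Müller glia and retinal pigment epithelium. Its intensity was 178.7, 203.4 and 104.7 on DKK1-treated arrays and 155.5, 155.1 and 116.3 on untreated arrays, against 540.9, 270.0 and 431.7 on primary arrays. Every primary array was above every ESC-RPC array. Rlbp1 differed by -1.35 ± 0.30 in DKK1-treated and -1.50 ± 0.30 in untreated ESC-RPCs, 2.55-fold and 2.82-fold lower (limma, adjusted p = 0.00323 and 0.00175). The summed intensity of 10 pigment epithelium genes overlapped between the groups, at 484.2 to 522.9 on DKK1-treated, 456.6 to 570.7 on untreated and 412.2 to 596.0 on primary arrays. Of those 10, 6 were below the floor on all DKK1-treated arrays, 7 on all untreated arrays and 5 on all primary arrays. Of the 5 kept, 2 were called lower in both ESC-RPC groups (Rgr and Dct) and 1 was called higher (Rdh5). Rgr and Dct were below the floor on all ESC-RPC arrays and passed the filter through primary arrays alone. Their lower direction was thus fixed by the filter and says nothing about Rlbp1. Their part in the Rlbp1 values was not tested.

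Clu and Apoe encode secreted proteins that carry lipids. Clu encodes clusterin, made by astrocytes and Müller glia. Its intensity was 1505, 1523 and 1509 on DKK1-treated arrays and 1270, 1398 and 1266 on untreated arrays, against 789.6, 710.5 and 809.2 on primary arrays. The 3 groups did not overlap. Clu was higher by 0.98 ± 0.09 in DKK1-treated and 0.77 ± 0.09 in untreated ESC-RPCs than in primary RPCs (limma, adjusted p = 9.27e-06 and 4.94e-05), and all 4 of its probe sets were called higher in both comparisons.

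Apoe encodes apolipoprotein E, made by astrocytes and Müller glia and also by microglia, macrophages and visceral endoderm. Its intensity was 2754, 2831 and 2503 on DKK1-treated arrays and 2654, 2348 and 2312 on untreated arrays, against 895.3, 1360 and 2258 on primary arrays. The primary arrays were widely spread, and the highest of them lay just below the lowest untreated array. Apoe was higher by 0.94 ± 0.25 in DKK1-treated and 0.80 ± 0.25 in untreated ESC-RPCs (limma, adjusted p = 0.00962 and 0.0221). The call for untreated ESC-RPCs was lost without untreated replicate 1 (0.734, adjusted p = 0.0694) and without primary replicate 1 (0.474, adjusted p = 0.0558).

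Markers of microglia and of visceral endoderm were set beside Apoe. The sum of 10 microglia and macrophage genes was 123.8 to 255.9 on DKK1-treated and 170.7 to 242.0 on untreated arrays, against 955.9, 937.2 and 1660 on primary arrays. Primary replicate 3 was highest for both the sum and Apoe, while replicate 2 had more Apoe than replicate 1 and a slightly lower sum. Of the 10, 7 were below the floor on all DKK1-treated arrays, 9 on all untreated arrays and 2 on all primary arrays. Visceral endoderm genes went in the same direction as Apoe. The sum of 10 of them was 1073 to 1388 on DKK1-treated and 1065 to 1400 on untreated arrays, against 216.4 to 350.8 on primary arrays. The part of either cell type in the Apoe values was not tested.

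**Figure D2:**
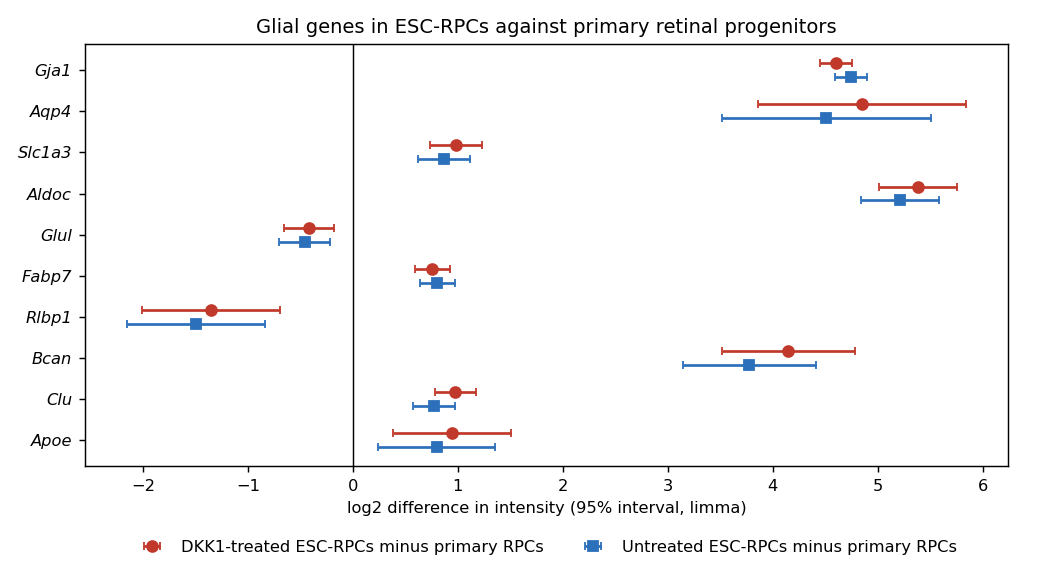
Log2 difference of each gene in DKK1-treated (circles) and untreated (squares) ESC-RPCs over primary RPCs, with 95% intervals from limma, n = 3 arrays per group. Both comparisons place Aldoc, Gja1, Aqp4 and Bcan highest and Glul and Rlbp1 below 0; the Aqp4 values rest on primary signals below the floor.

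Within each gene with several kept probe sets, these shared 1 direction against primary RPCs. Apoe, Fabp7 and Rlbp1 had 1 kept probe set each, so they could not show disagreement. Of 26 kept probe sets, 22 were called higher and 3 lower in each of the primary comparisons, and the remaining 1 was the dim Slc1a3 probe set. Over all kept probe sets, 47.5% were called for untreated and 47.6% for DKK1-treated ESC-RPCs against primary RPCs. The 2 probe sets that did not pass the filter, of Slc1a3 and Aqp4, were below the floor on all arrays except 1 untreated array for Aqp4.

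**Figure D3:**
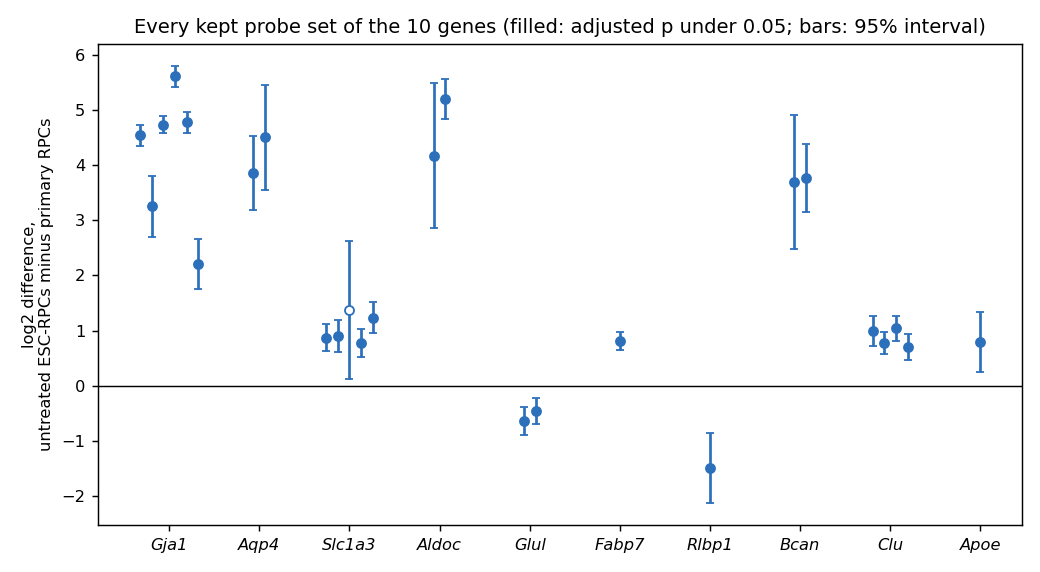
Log2 difference, untreated ESC-RPCs minus primary RPCs, of every kept probe set of the 10 genes with its 95% interval from limma; filled points have an adjusted p under 0.05. Where a gene has several probe sets, they lie on the same side of 0, and the 1 open point is the dim Slc1a3 probe set.

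DKK1 treatment was compared with no treatment to see whether the glial genes moved within ESC-RPCs. None of the 10 was called, and 0% of all 13320 genes were (limma, smallest adjusted p = 0.976). At an unadjusted p under 0.05 there were 308 of the 13320 genes, Clu among them, which is a share below 0.05. Of the 10 genes, 8 had a higher mean in DKK1-treated cells, and the median log2 difference was 0.15, beside -0.00183 over all genes. The 10 pluripotency genes, of which none was called, were all higher in mean in DKK1-treated cells, with a median of 0.22, and their part in the glial values was not tested. Of the 26 probe sets, 19 were higher and none was called.

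In 2 of the 10 genes, Gja1 and Clu, the DKK1-treated and untreated arrays did not overlap, as was so for 12.0% of all genes. Clu was higher in DKK1-treated cells by 0.21 ± 0.09 (95% interval 0.0092 to 0.41, unadjusted p = 0.0419, limma adjusted p = 1). All 4 Clu probe sets were higher without overlap, with differences of 0.21 to 0.35. Gja1 was lower by the brightest probe set, with a difference of -0.14 ± 0.07 (unadjusted p = 0.0707, limma adjusted p = 1). Its probe sets did not keep that direction: 3 of the 6 were higher and 3 lower in DKK1-treated cells, from -0.43 to 0.07.

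Same-numbered DKK1-treated and untreated arrays deviated weakly together from their group means, with correlations of 0.123, 0.195 and 0.318. Arrays with different numbers had -0.234 to 0.0681. The differences were therefore also read pair by pair. The labels name no pairing, so these pairs, and the blocked fit below, rest on a pairing taken from the same values. Of the 10 genes, 6 were higher in DKK1-treated cells in all 3 pairs (Aldoc, Slc1a3, Clu, Apoe, Bcan and Aqp4), which held for 18.4% of all genes. Gja1 and Fabp7 were lower in all 3 pairs, as were 19.0% of all genes. These readings use the brightest probe set of each gene, and other probe sets of Gja1, Slc1a3, Aldoc and Aqp4 did not all keep them. The brightest Gja1 probe set without the suffix was higher in all 3 pairs (0.02, 0.01 and 0.04). The dim Slc1a3 probe set was lower in all 3 (-1.04, -0.04 and -1.79). Glul and Rlbp1 differed in sign between pairs. For Fabp7 the difference was -0.05 ± 0.08, and it turned to 0.0415 with quantile normalization.

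Bcan changed its call between the unblocked and the blocked fit. Its log2 differences in the 3 pairs were 0.20, 0.53 and 0.39, and its 95% interval in the fit of 9 arrays ran from -0.26 to 1.01. With the replicate number as a block and the 6 ESC-RPC arrays alone, the difference of 0.37 had an SE of 0.06 and an adjusted p of 0.0405 (limma). Bcan was the 1 gene of the 10 called in that fit, where 0.488% of all genes were called, 65 in number. The Bcan call was lost without pair 2 (0.294, adjusted p = 0.139) and with the mean of its probe sets (0.358, adjusted p = 0.132). The other 9 genes had adjusted p-values of 0.0719 to 0.774 in the blocked fit, with Aldoc lowest at 0.17 ± 0.04 and Clu at an adjusted p of 0.11.

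Axin2, a direct target of Wnt signalling in many tissues, was not called either. It averaged 608.4 in DKK1-treated and 791.4 in untreated ESC-RPCs, a difference of -0.38 ± 0.11 with no overlap between groups that did not pass the threshold (unadjusted p = 0.00624, limma adjusted p = 1). Dkk1 itself averaged 128.0 in DKK1-treated and 134.1 in untreated ESC-RPCs. The added protein leaves no transcript of its own, so this does not check the treatment.

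**Figure D4:**
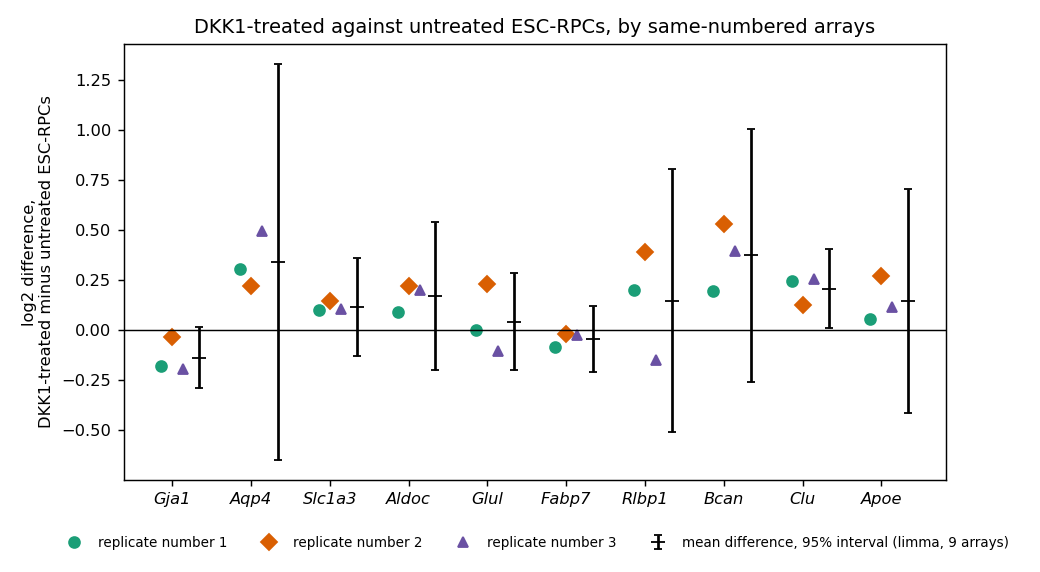
Log2 difference, DKK1-treated minus untreated ESC-RPCs, in each pair of same-numbered arrays (coloured points), beside the mean difference with its 95% interval from limma over 9 arrays (black). Each gene is shown by its brightest probe set, and other probe sets of Gja1, Slc1a3, Aldoc and Aqp4 did not all keep these signs. Aldoc, Slc1a3, Clu, Apoe, Bcan and Aqp4 have all 3 pairs above 0, Gja1 and Fabp7 have all 3 below, and no gene had an adjusted p under 0.05 in the fit shown.

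Replicate 3 had the lowest value of its group in both DKK1-treated and untreated ESC-RPCs for 5 of the 10 genes (Aldoc, Apoe, Bcan, Aqp4 and Rlbp1), and for 23.2% of all genes. This count was made after the values were seen. Of 17 kept other astrocyte genes, 11 had the same order, among them Aldh1l1 and Gfap. The order was not particular to glial genes. Every gene of the neuron list was also lowest on replicate 3 of both groups, such as Snap25 (1053 in DKK1-treated and 1077 in untreated), Gap43 (3355 and 3407) and Dcx (4650 and 4532). The summed intensity of 20 other astrocyte genes was 24740, 24660 and 17560 on DKK1-treated arrays and 24500, 21790 and 17460 on untreated arrays. The replicate 3 arrays were thus the lowest of their group for the summed astrocyte signal, while their sums of 13 other Müller glia genes, 12870 in DKK1-treated and 12280 in untreated ESC-RPCs, were the highest. That sum holds bright genes that were highest on replicate 3 of both groups, Ccnd1 (4510 and 4606) and Crym (1352 and 1057). Of the 12 kept Müller glia genes, 3 were instead lowest on replicate 3 of both groups (Dkk3, Car2 and Sox8).

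Other genes of the same cell types show how far the pattern against primary RPCs extends. Of 17 kept other astrocyte genes, 11 were called higher in untreated ESC-RPCs than in primary RPCs and 3 lower, with a median difference of 1.72. In DKK1-treated ESC-RPCs 12 were higher and 3 lower, with a median of 2.01. Gfap, Mlc1, Acsbg1 and Ntsr2 passed the filter through ESC-RPC arrays alone and Aldh1a1 through primary arrays alone. S100b, Gjb6 and Gpr37l1 did not pass. The counts and medians of the astrocyte list thus depend in part on the filter. Beside this and the following lists, 26.1% of all genes were called higher and 26.9% lower in untreated ESC-RPCs. For DKK1-treated ESC-RPCs the shares were 26.0% and 26.8%. Aldh1l1, a folate enzyme and astrocyte marker, averaged 2022 ± 385 in DKK1-treated and 1906 ± 345 in untreated ESC-RPCs, against 56.3 ± 22.1 in primary RPCs (SD, n = 3). It was 35.1-fold higher in untreated ESC-RPCs (limma, adjusted p = 1.03e-07). Mlc1, an astrocyte membrane protein, was at least 5.47-fold higher in DKK1-treated and at least 4.77-fold higher in untreated ESC-RPCs.

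Acsbg1, an acyl-CoA synthetase of glia, was at least 5.71-fold higher in DKK1-treated and at least 4.77-fold higher in untreated ESC-RPCs than in primary RPCs. Gfap, the intermediate filament of mature and reactive astrocytes, was 180.0, 135.4 and 102.9 on DKK1-treated arrays and 135.4, 127.9 and 69.47 on untreated arrays. All 3 primary arrays were below the floor for Gfap, at 18.63, 13.57 and 6.734. Gfap was therefore at least 2.87-fold higher in DKK1-treated and at least 2.25-fold higher in untreated ESC-RPCs. Its test used the values as measured, without the floor (limma, adjusted p = 7.33e-05 and 0.000153).

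The 3 astrocyte-list genes that fell, named after their values were seen, were Aldh1a1, Atp1b2 and Mfge8. Aldh1a1, a retinoic acid enzyme that also marks the dorsal retina, averaged 9.91 in DKK1-treated and 10.3 in untreated ESC-RPCs, below the floor on all 6 arrays, against 3063 ± 474 in primary RPCs. It was at least 64.6-fold lower in DKK1-treated and at least 65.1-fold lower in untreated ESC-RPCs. Atp1b2, a sodium pump subunit, and Mfge8, a secreted protein of phagocytosis, differed by -1.44 ± 0.22 and -0.60 ± 0.13 in untreated ESC-RPCs.

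Of 15 other radial glia genes, 10 were called higher and 2 lower in untreated ESC-RPCs, with a median of 0.99, and 9 were higher and 3 lower in DKK1-treated ESC-RPCs, with a median of 0.75. Ednrb, an endothelin receptor of glia and neural crest, averaged 7864 ± 871 in DKK1-treated and 7519 ± 1034 in untreated ESC-RPCs, against 611.2 ± 18.6 in primary RPCs (SD, n = 3). Ncan, which encodes the matrix proteoglycan neurocan, differed by 3.51 ± 0.19 in DKK1-treated and 3.42 ± 0.19 in untreated ESC-RPCs. Vim, the intermediate filament of radial glia and many other cells, differed by 0.57 ± 0.07 in DKK1-treated and 0.64 ± 0.07 in untreated ESC-RPCs. The 2 that were lower in untreated ESC-RPCs were Cspg5 and Gas1.

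Among the other Müller glia genes, calls were made in the lower direction alone. Of 12 kept, 7 were called lower, none was called higher and 5 were not called in each ESC-RPC group against primary RPCs, beside the 26.8% (DKK1-treated) and 26.9% (untreated) of all genes called lower. The medians were -1.78 for DKK1-treated and -1.80 for untreated ESC-RPCs, and 4 genes in DKK1-treated and 3 in untreated ESC-RPCs had a higher mean than in primary RPCs. Several of them are not exclusive to glia: Ccnd1 is a cell cycle gene of retinal progenitors, and Kdr, a receptor for vascular endothelial growth factor, marks endothelium and part of the developing retina. Kdr was 68.38, 95.37 and 103.8 on DKK1-treated arrays and 67.79, 74.72 and 80.67 on untreated arrays, against 5689, 5186 and 7316 on primary arrays. It was 80.8-fold lower in untreated ESC-RPCs (limma, adjusted p = 3.79e-09).

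Dkk3, a secreted protein of the Dickkopf family, was 10.4-fold lower in untreated ESC-RPCs, at 526.9 ± 22.2 in DKK1-treated and 531.6 ± 68.7 in untreated ESC-RPCs against 5527 ± 778 in primary RPCs (SD, n = 3). Sox8, a transcription factor of glia, differed by -3.70 ± 0.17 in DKK1-treated and -4.07 ± 0.17 in untreated ESC-RPCs. Car2, a carbonic anhydrase of Müller glia, differed by -1.82 ± 0.09 in DKK1-treated and -1.97 ± 0.09 in untreated ESC-RPCs. Of the 10 genes, those named here as Müller glia genes did not share a direction: Glul and Rlbp1 were called lower, and Aqp4, Slc1a3, Clu and Apoe higher.

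Among 18 regulators of gliogenesis, 10 were called higher and 4 lower in untreated ESC-RPCs, with a median of 0.43, and 9 were higher and 4 lower in DKK1-treated ESC-RPCs. Of all genes, 26.1% were called higher and 26.9% lower in untreated ESC-RPCs, and 26.0% and 26.8% in DKK1-treated ESC-RPCs. Nfia and Nfib, nuclear factor I proteins that act in the onset of gliogenesis, were higher in untreated ESC-RPCs by 1.31 ± 0.14 and 1.06 ± 0.11 (limma, adjusted p = 2.97e-05 and 1.99e-05). Lhx2, a homeodomain factor of retinal progenitors and Müller glia, averaged 1114 ± 87.5 in DKK1-treated and 1379 ± 281 in untreated ESC-RPCs, against 4048 ± 128 in primary RPCs (SD, n = 3). Rax, Hes1 and Notch1 were the other regulators called lower in both groups. In none of the 4 lists was a gene called between DKK1-treated and untreated ESC-RPCs.

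**Figure D5:**
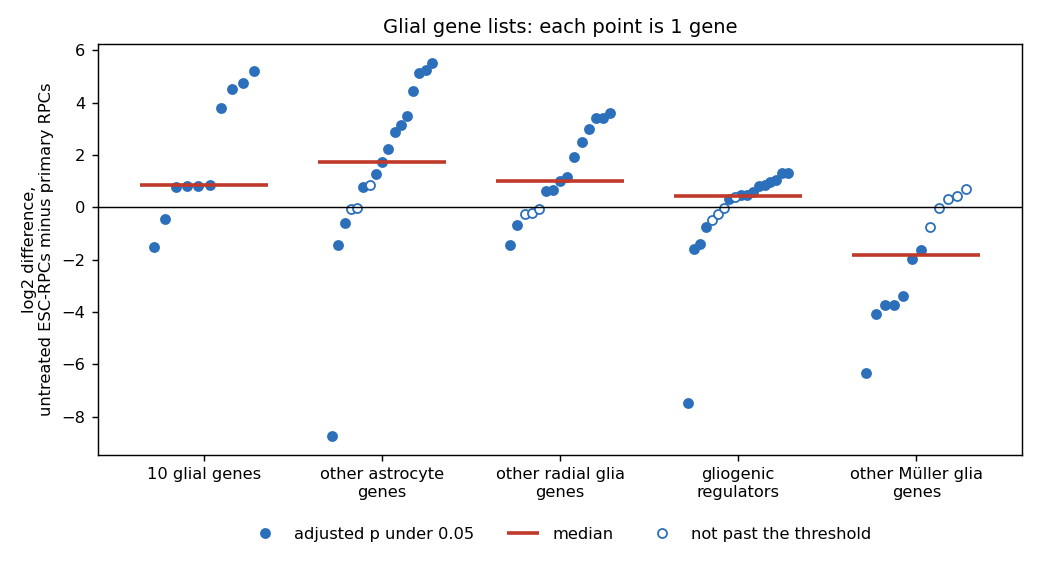
Log2 difference, untreated ESC-RPCs minus primary RPCs, of each kept gene (1 point) of the 10 glial genes and 4 further lists, with the list median (red line); filled points have an adjusted p under 0.05. The medians are 0.83, 1.72, 0.99, 0.43 and, for the other Müller glia genes, -1.80.

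For each of the 10 genes the most similar profile over the 9 arrays was found by the smallest root mean square difference of mean-centred log2 values. The search covered the 13320 genes without the 10 themselves and without symbols of Gm and a number or ending in Rik. A gene of the 10 could therefore not be matched to another of them. Fabp7 had the closest neighbour, Ppm1f at 0.0489, followed by Clu with Ogt at 0.0662, Glul with Hif1an at 0.0686 and Slc1a3 with Utp4 at 0.0828. Rlbp1 was nearest to Plppr1 at 0.134, Apoe to Wnt11 at 0.157, Gja1 to Il18 at 0.196 and Aldoc to Dlx6os1 at 0.239. A gene with a small range over the arrays finds a close neighbour more easily, so these distances are not comparable between genes.

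Bcan was nearest to Acss1, a mitochondrial acetyl-CoA synthetase, at 0.172. Acss1 was 1495, 1438 and 982.0 on DKK1-treated arrays and 1392, 1202 and 895.1 on untreated arrays, against 50.64, 75.97 and 94.05 on primary arrays. Like Bcan, it was lowest on replicate 3 of each ESC-RPC group and highest on replicate 3 of the primary group. Acss1 was chosen for its likeness to Bcan over these same arrays, so a shared order is favoured by that choice. Aqp4 was nearest to the metallothionein Mt3, itself on the astrocyte list, at 0.206, and Mt3 averaged 720.0 ± 147.6 in DKK1-treated, 668.9 ± 114.2 in untreated and 35.5 ± 21.9 in primary cells (SD, n = 3).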

How the data were processed

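The samples were 9 Affymetrix 3-prime arrays of mouse cells, 3 in each of 3 groups taken from the sample labels. The deposited values are linear intensity values, 1 per probe set and array, made by the authors with MAS5 per the submitters' processing notes; its version and settings are not given in the sources used here. Each array's trimmed mean, leaving out the outer 2% on both sides, was 500. Arrays give no read depth, and their number limits the precision.

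Of 45101 probe sets, 64 were controls, 932 matched several genes and 9160 none. Log2 was taken with no further scaling. Probe sets had to exceed the 40th percentile of the array on 3 or more of the 9 arrays, which left 29052. The brightest kept probe set (mean log2 over all arrays) stood for each of 13320 genes. Folds against a group with all 3 arrays below that percentile use it as a floor ("at least"). The linear models used limma 3.58.1 in R 4.3.3 on all 9 arrays, with an intensity trend, two-sided moderated tests and Benjamini-Hochberg adjustment over all genes, or over all kept probe sets. The test was checked on simulated data.

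The same-number correlations of deviations from group means were 0.123, 0.195 and 0.318 between DKK1-treated and untreated arrays, so these numbers were taken as pairs. The labels name no pairing, and it was read from the values. With the primary arrays they were -0.0433 to -2.36e-06, and these were not paired. Named genes were the 10 genes, the nearest profile of each, up to 4 genes per list and comparison with the smallest adjusted p, and Sox1, Axin2, Dkk1, Rax, Gfap and Vim. Genes of 5 or fewer in a count were also named, after their values were seen. The members and lists were chosen with earlier results of these data known. Alternatives covered the replicate block, normalization, pseudocount, filter, probe set rule, intensity trend, arrays in the fit and each array left out. Promoter sequences come from RefSeq (GRCm38.p6).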

Additional observations from a re-analysis of the deposited data

How the results depend on the processing

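Against primary RPCs the 10 directions held under every alternative run, for both ESC-RPC groups, and the calls held except those of Slc1a3 and Apoe named in the report. For untreated ESC-RPCs, leaving out 1 array left 9 to 10 of the 10 genes called, and the Apoe difference ran from 0.474 to 1.14. Between DKK1-treated and untreated ESC-RPCs no gene was called with the replicate number as a block on all 9 arrays. With the replicate block on the 6 ESC-RPC arrays 65 genes were called, 1 of them among the 10 (Bcan). Alternatives chosen after seeing the data left out 1 pair each from that blocked fit and called 71, 8 and 213 genes without pair 1, 2 and 3, with Bcan the 1 gene of the 10 called without pair 1 (0.463) and without pair 3 (0.364). Without the intensity trend 1 gene was called. The blocked fit changed no other call. Some differences between DKK1-treated and untreated cells that did not pass the test changed sign: Gja1 to 0.0149, Slc1a3 to -0.956 and Glul to -0.00243 with the most variable probe set, Slc1a3 to -0.119 with the mean of probe sets, blocked or not, Fabp7 to 0.0415 with quantile normalization, and Glul to -0.0525 in the blocked fit without pair 2. With 1 array left out at a time, Glul ran from -0.036 to 0.13 and Rlbp1 from -0.0442 to 0.435. The causes of these changes were not tested. Signals near or below the floor, as for Aqp4 in primary RPCs, limit the folds to bounds.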
